A study of Mus musculus with 8 samples.

Results

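The genes described here encode the proteins of the cytosolic ribosome. They were chosen by symbol alone, as every Rpl or Rps symbol followed by a digit plus Rplp0, Rplp1, Rplp2 and Rpsa, with the Rps6k kinases and names ending in ps left out. The rule found 86 members among 18790 gene symbols in the files. Of these, 46 encode core proteins of the large (60S) subunit and 31 core proteins of the small (40S) subunit, while 9 lie outside the core set as paralogs, retrocopies or partners (Rpl3l, Rpl7l1, Rpl22l1, Rpl36al, Rpl37rt, Rpl39l, Rps4l, Rps19bp1 and Rps27l). Another 10 symbols, of the Rps6k kinases, were left out. The core proteins S30 and RACK1 carry other names (Fau and Gnb2l1) and are given beside the members.

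RNA came from femoral bone marrow of untreated C57BL/6 mice carrying the Csf1r-EGFP transgene, in which the promoter of the macrophage growth factor receptor Csf1r drives a green reporter. Of the sorted populations, CD11b+ cells were CD11b+, F4/80+, VCAM1+, Ly6G- and low for the reporter, and CD11b- cells were CD11b-, F4/80+, VCAM1+ and reporter-positive. The sources used here state neither the age of the mice nor whether marrow was pooled. Each population had 4 biological replicates, made into SmartSeq2 libraries, a full-length poly(A) method that does not mark strand. Levels are CPM (counts scaled to the library total), as the authors deposited them, unless another scale is named.

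Every ribosome holds 1 copy of most of these proteins, so their genes are usually transcribed and translated together. Their mRNAs are known for a tract of C and T letters that begins at the transcription start (the terminal oligopyrimidine, or TOP, tract), through which growth signals control their translation. Mammalian genomes carry many processed pseudogenes of ribosomal protein genes, and a few intact paralogs that can take a parent's place. In people, loss of 1 copy of several of these genes causes Diamond-Blackfan anaemia, a failure of red cell production in the marrow.

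The tract is shown first, because it is a feature that the symbol rule did not use. It was searched on the gene's strand as a C followed by at least 4 more C or T letters, beginning within 5 bases of the start annotated by RefSeq on GRCm38.p6. Of 65 members matched in the promoter table, 29 held it (44.6%), against 21.2% of all 27025 genes in the table, and among core members 27 of 57 did (47.4%). Lines below give 20 bases on each side of the start, with the tract in capitals, for the 2 members with the longest tracts, for Rps27, whose paralog is compared with it further on, and for 3 members whose counts are described further on and whose windows do not.
Rpl27a (chr7:109519175-109519214, plus strand): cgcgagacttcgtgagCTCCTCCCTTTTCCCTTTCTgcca
Rpl15 (chr14:18270967-18271006, minus strand): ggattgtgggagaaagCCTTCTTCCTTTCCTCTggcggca
Rps27 (chr3:90213629-90213668, minus strand): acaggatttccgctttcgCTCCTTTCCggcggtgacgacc
Rpl41 (chr10:128549149-128549188, minus strand): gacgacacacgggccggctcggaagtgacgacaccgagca
Rpl7l1 (chr17:46782637-46782676, minus strand): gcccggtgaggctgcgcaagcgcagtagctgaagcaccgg
Rps3a1 (chr3:86142649-86142688, minus strand): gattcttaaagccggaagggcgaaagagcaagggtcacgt
A match is a description of these letters, and a window without one says only that the tract is not in it. The submitters' processing notes name another build, mm9, so these coordinates belong to the RefSeq sequences alone. The median log2 fold change of CD11b+ over CD11b- cells was -0.25 over the 29 members with a tract and -0.07 over the 36 without, with no test made.

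The libraries held 36604660 to 47951234 counts in CD11b+ cells and 27462607 to 35160747 in CD11b- cells. Marker lists moved with the sort: all 15 erythroid markers tested (summed level 822 to 1512 CPM in CD11b+ libraries and 42144 to 56466 CPM in CD11b- libraries), all 8 tested markers of B cell progenitors and all 10 of proliferation were lower in CD11b+ cells. Of 13 neutrophil and granule markers 11 were higher in CD11b+ cells, with a summed level of 131235 to 152545 CPM in CD11b+ libraries and 651 to 6897 CPM in CD11b- libraries, and 5 of 6 eosinophil markers were higher. No marker on these lists was at 0 in every library of a population. The 12 macrophage markers summed to 1739.7 to 2021 CPM in CD11b+ libraries and 1336 to 1701 CPM in CD11b- libraries, with 4 higher and 2 lower in CD11b+ cells. The part of these cells in the results below was not tested, and in bulk RNA fewer cells of a type and less RNA per cell cannot be told apart.

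As a family, the ribosomal protein genes took a small share of the counts in both populations. They held 0.607%, 0.558%, 0.619% and 0.741% of gene counts in CD11b+ replicates 1 to 4, against 0.712%, 0.720%, 0.651% and 0.749% in CD11b- replicates 1 to 4. The groups overlap, because CD11b+ replicate 4 lay above 3 of the CD11b- libraries. The mean share was 0.631% ± 0.078 in CD11b+ cells and 0.708% ± 0.041 in CD11b- cells (SD, n = 4 each), a difference of -0.077 percentage points for which no test was planned. Part of a share is set by the rest of the library, and the top 20 genes by abundance made up 19.0% ± 0.41 of the CD11b+ libraries and 10.1% ± 0.74 of the CD11b- libraries. With those 20 genes left out of the totals the shares were 0.780% ± 0.094 in CD11b+ cells and 0.788% ± 0.040 in CD11b- cells, which leaves a difference of -0.008 points.

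**Figure D1:**
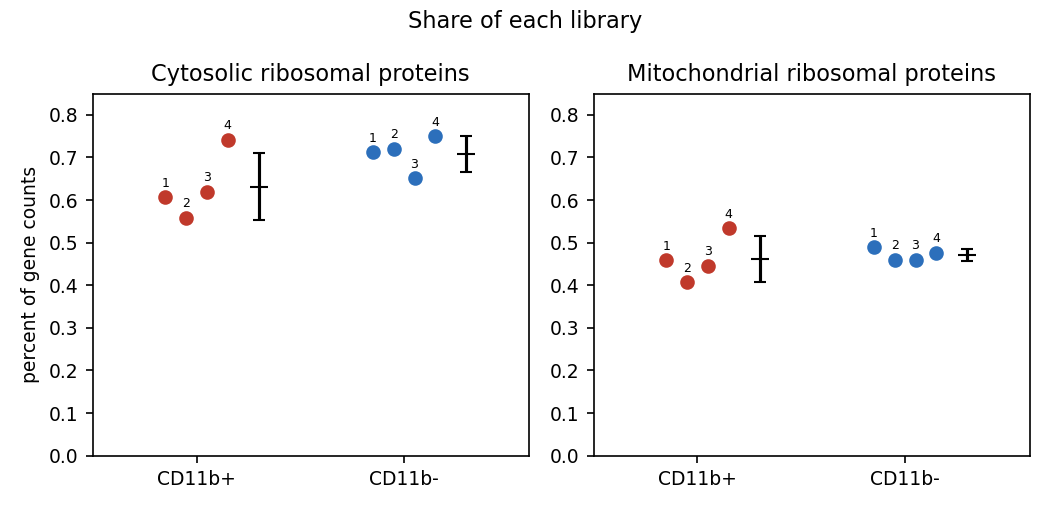
Share of each library's gene counts (percent) in the 86 cytosolic and the 77 mitochondrial ribosomal protein genes, with CD11b+ left and CD11b- right, points numbered by replicate and bars giving mean and SD. CD11b+ replicate 4, at 0.741% and 0.534%, is the highest CD11b+ library in both panels, and the populations overlap in both.

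CD11b+ replicate 4 stood above the other CD11b+ libraries across the family. It held the highest CD11b+ value for 63 of 86 members, whereas 29.8% of all tested genes had their highest CD11b+ value there. The mitochondrial ribosomal proteins, which build a separate ribosome, showed the same library order at the top, with 0.534% of counts in CD11b+ replicate 4 and 0.407% to 0.459% in the other CD11b+ libraries. Their mean share was 0.461% ± 0.053 in CD11b+ cells and 0.471% ± 0.015 in CD11b- cells. Among the CD11b- libraries, replicate 4 likewise had the highest cytosolic share, at 0.749%. It held the highest CD11b- value for 43 of 86 cytosolic members, against 28.0% of all tested genes. The mitochondrial share did not follow there: it was highest in CD11b- replicate 1, at 0.490%, against 0.477% in CD11b- replicate 4.

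Gene by gene, few members differed between the populations. Of 11965 genes tested with edgeR's quasi-likelihood test, 29.7% were called at a Benjamini-Hochberg adjusted p under 0.05 (14.6% higher and 15% lower in CD11b+ cells). All 86 members passed the filter on low counts, and 3 of them (3.49%) were called: Rpl7l1 was higher, and Rpl41 and Rpl3 were lower. At an unadjusted p under 0.05 there were 7. The fitted log2 fold change was below 0 for 64 members and above 0 for 22. Its median was -0.15 over the members and -0.01 over all genes tested; it was -0.25 without CD11b+ replicate 4 and -0.09 without CD11b+ replicate 2. The median size without regard to sign was 0.27 for members and 0.84 for all genes. The fitted difference was 2-fold or more for 7 of the 86 members, against 44.3% of all genes. Core members of the large subunit had a median of -0.27 with 38 of 46 below 0, those of the small subunit -0.13 with 24 of 31 below 0, and the 9 outside the core set 0.28 with 2 below 0. With the top 20 genes left out of the totals, the median of all genes moved by 0.11, that of the members stood at -0.04, and 50 members were below 0. The libraries of the populations did not overlap for 12 members (14.0%), 2 with CD11b+ above and 10 with CD11b- above, against 36.5% of all tested genes.

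**Figure D2:**
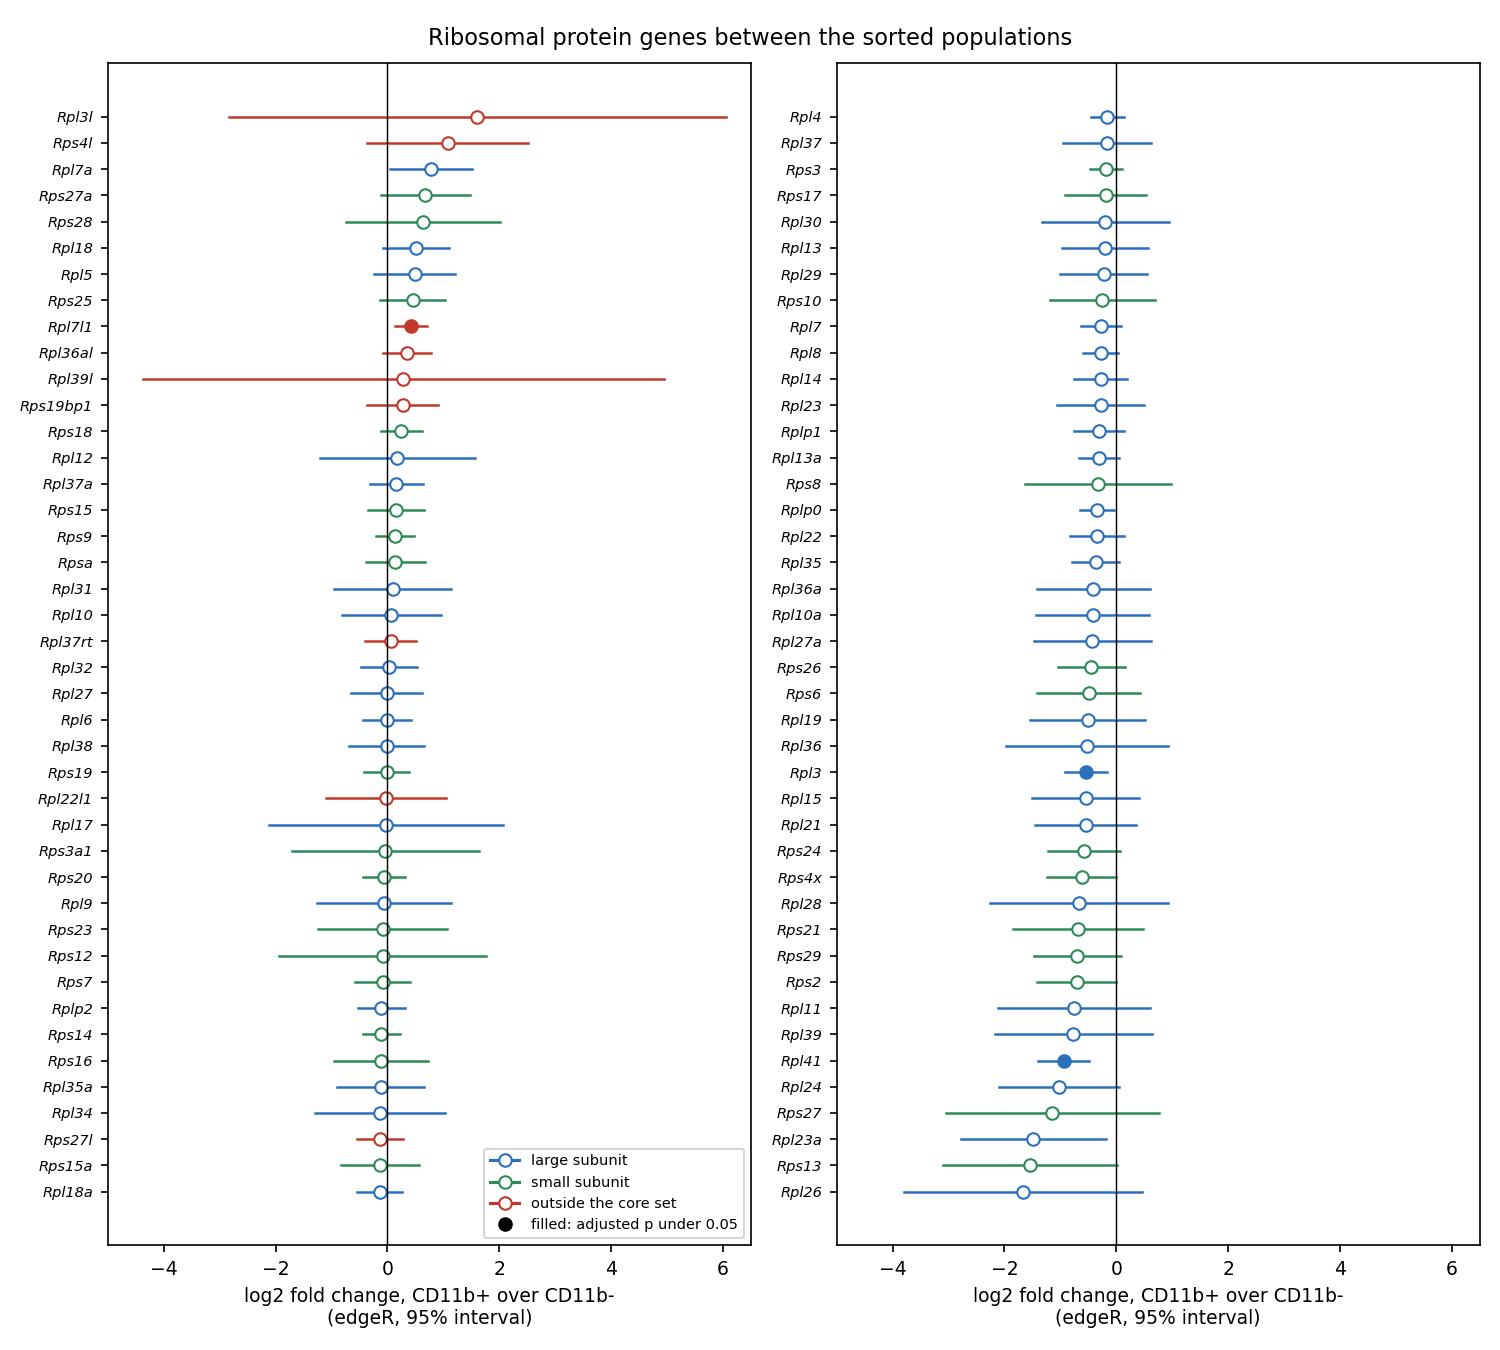
Fitted log2 fold change of CD11b+ over CD11b- with its 95% interval for 84 of the 86 members in falling order, coloured by class, with filled points for an adjusted p under 0.05 (edgeR). Most points lie a little left of 0, and the 3 filled points are Rpl7l1 at 0.42, Rpl3 at -0.53 and Rpl41 at -0.94.

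A p that misses the threshold does not show that a gene was alike in both populations, and the intervals differ much in width. For 40 members the 95% interval lay within 2-fold either way. Intervals spanning over 2 log2 units belonged to 29 members whose median level was 5.78 CPM, against a median of 41.4 CPM for the other 57. CD11b+ replicate 4 bore on the count of calls: without it 4 members were lower (Rpl3, Rpl35, Rpl41 and Rps2) and none higher. DESeq2 called 6 lower and 1 higher, where it called 35.7% of all genes.

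Rpl41 encodes the smallest protein of the large subunit, a short basic peptide. It measured 31.2, 35.8, 44.3 and 52.9 CPM in CD11b+ replicates 1 to 4, against 71.1, 83.5, 79.0 and 89.6 CPM in CD11b- replicates 1 to 4. All 4 CD11b+ libraries lay below all 4 CD11b- libraries. The fitted level was 1.92-fold lower in CD11b+ cells, a log2 fold change of -0.94 ± 0.21 (SE) with an edgeR adjusted p of 0.00648, and it was called in all 17 alternative fits, with adjusted p between 0.000263 and 0.0238. Of its 50-base stretches 43.9% are shared with other annotated genes.

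Rpl3 encodes a large subunit protein that reaches toward the centre where peptide bonds are made. It measured 83.8, 80.5, 94.8 and 128 CPM in CD11b+ cells, against 140.2, 140.3, 143 and 151 CPM in CD11b- cells. The groups did not overlap, and CD11b+ replicate 4 came nearest to the CD11b- libraries. The log2 fold change was -0.53 ± 0.17 (SE), with an edgeR adjusted p of 0.0371. This call stood in 7 of 17 alternative fits, whose adjusted p ran between 0.00892 and 0.111. It was lost on leaving out any library other than CD11b+ replicate 4. The gene shares 85.6% of its 50-base stretches, with 26 annotated pseudogenes among the sharers.

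Rpl7l1 was the member called higher. It is a relative of Rpl7, and its yeast counterpart Rlp7 acts in the nucleolus while the large subunit is being assembled. CD11b+ libraries held 235, 207, 224 and 225 CPM, against 199.98, 180.3, 149 and 155 CPM in CD11b- libraries, with no overlap. The log2 fold change was 0.42 ± 0.13 (SE), a 1.34-fold higher level in CD11b+ cells, with an edgeR adjusted p of 0.0310. This call too stood in 7 of 17 alternative fits, with adjusted p between 0.00642 and 0.0792, and was lost without any 1 of the CD11b+ libraries or without CD11b- replicate 3 or 4.

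**Figure D3:**
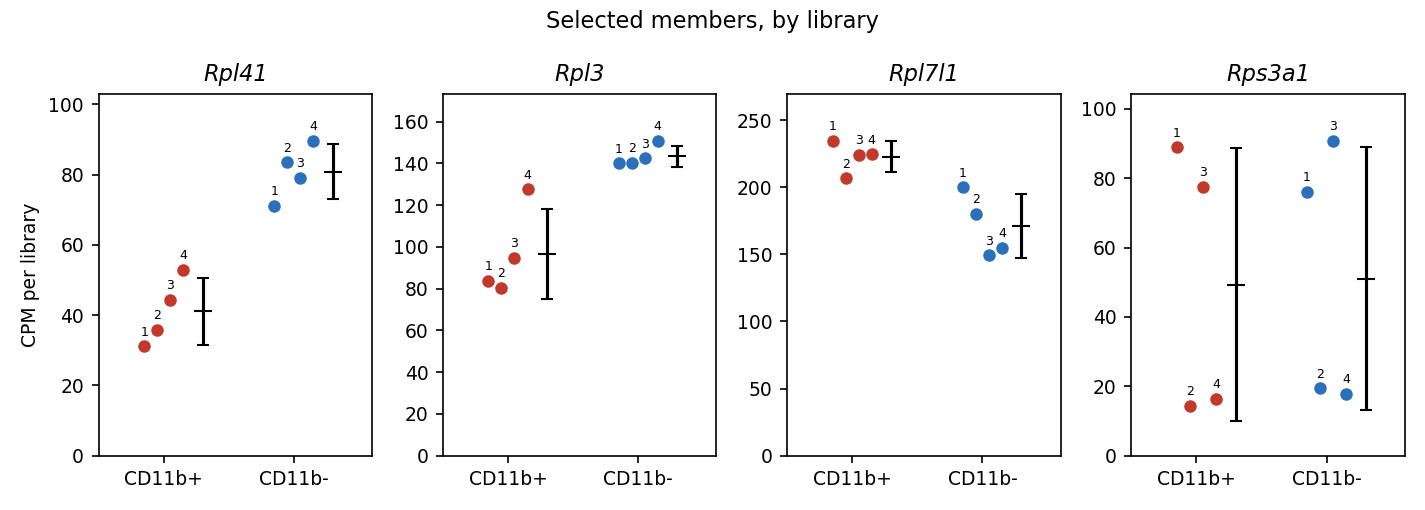
CPM in each library for Rpl41, Rpl3, Rpl7l1 and Rps3a1, CD11b+ left and CD11b- right, points numbered by replicate, bars giving mean and SD, each panel with its own axis from 0. Rpl41 and Rpl3 separate with CD11b- above and Rpl7l1 with CD11b+ above, while Rps3a1 takes 14.4 to 19.4 CPM in replicates 2 and 4 and 76.1 to 90.8 CPM in replicates 1 and 3 of both populations.

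Scaling each library to its summed member counts, so that a shift of the whole family cancels, left the same 3 members called, where 29.2% of all genes were called. On that scale Rpl7l1 was higher by a log2 value of 0.55 ± 0.15 (adjusted p 0.0183), Rpl41 was at -0.82 ± 0.18 (adjusted p 0.00732) and Rpl3 at -0.42 ± 0.14 (adjusted p 0.0430; SE, edgeR). The replicate number as a block, or leaving out the Mpo-high pair of libraries named further on, ended the relative call of Rpl3. Leaving out single libraries ended the relative calls of Rpl7l1 without CD11b+ replicate 1, 2 or 3 and of Rpl3 without any library but CD11b+ replicate 4. Rpl41 kept its call each time.

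Rps3a1, named after its values were seen, departed from the rest in another way. This small subunit protein lies near the exit of the mRNA channel. It measured 89.0, 14.4, 77.6 and 16.5 CPM in CD11b+ replicates 1 to 4, against 76.1, 19.4, 90.8 and 17.9 CPM in CD11b- replicates 1 to 4. Replicates 1 and 3 were high and replicates 2 and 4 low in both populations, over counts between 491 and 3720. The fitted log2 fold change was -0.04 ± 0.74 (SE; edgeR adjusted p 0.980), an estimate that moves between -0.46 and 0.48 as libraries are left out. Its coefficient of variation, 80.0% in CD11b+ cells and 74.3% in CD11b- cells, was the highest among the 62 members with a mean of at least 10 CPM, whose medians were 18.6% and 16.0% in the same order. Next came Rps4l, at 53.8% in CD11b+ and 60.4% in CD11b- cells. The transcript of Rps3a1 shares 71.0% of its 50-base stretches, and 9 pseudogenes are among the sharers; their part in the spread was not tested.

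Of the other core members, the 6 with the lowest fitted fold change were Rpl26, Rps13, Rpl23a, Rps27, Rpl24 and Rpl41, and all but Rpl41 were low in counts. Rpl23a, beside the exit of the tunnel through which new proteins leave, measured 2.65, 1.85, 3.07 and 4.40 CPM in CD11b+ cells, against 8.73, 6.74, 7.53 and 11.3 CPM in CD11b- cells. Its groups did not overlap, and its log2 fold change of -1.48 ± 0.58 (SE) missed the threshold, with an edgeR adjusted p of 0.0858 that DESeq2 gave as 0.0131. Rpl26, which also lies at the tunnel exit, had 0.334 to 0.874 CPM in CD11b+ libraries and 1.09 to 2.42 CPM in CD11b- libraries, with no overlap and a log2 fold change of -1.67 ± 0.95. Rps13, a small subunit protein, had 1.22 to 2.41 CPM in CD11b+ libraries and 3.50 to 7.33 CPM in CD11b- libraries, again apart, at -1.55 ± 0.69. Rpl24, which forms a bridge between the subunits, had 3.11 to 6.41 CPM in CD11b+ libraries and 9.16 to 13.0 CPM in CD11b- libraries, at -1.02 ± 0.48. DESeq2 called Rps13 and Rpl24 lower as well (adjusted p 0.0331 and 0.0494).

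At the other end stood Rpl7a, Rps27a, Rps28, Rpl18, Rpl5 and Rps25, and none of them passed the test. Rpl7a, a large subunit protein, measured 46.5, 40.9, 35.6 and 24.3 CPM in CD11b+ cells, against 21.6, 24.8, 27.0 and 14.0 CPM in CD11b- cells. The groups met only through CD11b+ replicate 4, and the log2 fold change was 0.79 ± 0.33 (SE; edgeR adjusted p 0.106); 121 annotated pseudogenes share sequence with it. Rps25, a small subunit protein that some viral internal ribosome entry sites require, had 265, 226, 202 and 215 CPM in CD11b+ cells, against 222, 229, 141 and 94.1 CPM in CD11b- cells. Its spread lay in the CD11b- group, where the libraries highest in the progenitor granule gene Mpo, replicates 1 and 2 with 5827 and 3966 CPM of it, were also those highest in Rps25. Without that pair the log2 fold change was 0.95 with an edgeR adjusted p of 0.0251, against 0.45 ± 0.26 and 0.247 with all libraries. That fit was added after seeing the data. Taking out the CD11b- libraries highest in Rps25 was bound to raise its difference, so the change is no evidence about the gene. Rps28, a small subunit protein beside the mRNA path, had 4.05 to 6.51 CPM in CD11b+ libraries and 2.96 to 3.87 CPM in CD11b- libraries, which did not overlap, at 0.63 ± 0.61. Rpl18, a large subunit protein, had 23.7 to 36.0 CPM in CD11b+ libraries and 18.7 to 24.8 CPM in CD11b- libraries, at 0.51 ± 0.26.

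Rps27a encodes a fusion of S27a to ubiquitin, the small protein tag that marks others for breakdown. It measured 25.3, 13.3, 19.1 and 25.8 CPM in CD11b+ cells, against 11.01, 16.4, 13.7 and 12.2 CPM in CD11b- cells, at a log2 fold change of 0.68 ± 0.35 (SE; edgeR adjusted p 0.195). Its groups overlapped. Fau, whose S30 protein is fused to a ubiquitin-like domain, had 13.2 to 21.6 CPM in CD11b+ libraries and 22.6 to 30.9 CPM in CD11b- libraries, at -0.73 ± 0.29 and an adjusted p of 0.0952. Gnb2l1, the scaffold protein RACK1 on the small subunit, had 704 to 993 CPM in CD11b+ libraries and 632 to 1206 CPM in CD11b- libraries, and its log2 fold change of -0.21 ± 0.22 missed the threshold.

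The stalk recruits translation factors to the large subunit, with Rplp0 as its base and Rplp1 and Rplp2 as its flexible arms. None of the 3 genes passed the test. Rplp0 measured 466, 492, 540.0 and 637 CPM in CD11b+ cells, against 697, 688, 605 and 791 CPM in CD11b- cells, so that CD11b+ replicate 4 alone overlapped, at a log2 fold change of -0.34 ± 0.14 (SE; edgeR adjusted p 0.0923, DESeq2 adjusted p 0.0301). Rplp1 was at -0.30 ± 0.20 and Rplp2 at -0.11 ± 0.19. Rpl5 and Rpl11 bind 5S ribosomal RNA, and the complex restrains Mdm2, the inhibitor of p53, when ribosome assembly fails. Rpl5 had 21.9 to 38.4 CPM in CD11b+ libraries and 16.0 to 25.8 CPM in CD11b- libraries (0.48 ± 0.32), while Rpl11 had 2.15 to 5.55 CPM in CD11b+ libraries and 4.32 to 9.98 CPM in CD11b- libraries (-0.75 ± 0.60). Both overlapped between populations. Of 21 ribosomal protein genes mutated in human Diamond-Blackfan anaemia none was called, with a median log2 fold change of -0.19, and 17 of them were below 0. Of all members 3.49% were called, against 29.7% of all genes tested, and 62 of the 77 core members were below 0. The anaemia genes thus did not stand out from the family. Rps19, the gene most often mutated in that disease, measured 86.1, 88.2, 109 and 136 CPM in CD11b+ cells, against 112, 95.4, 100.2 and 126 CPM in CD11b- cells, and its log2 fold change of -0.02 ± 0.18 had a 95% interval of -0.41 to 0.38. Without CD11b+ replicate 4, Rpl35 was called lower (67.1, 62.5, 57.9 and 97.0 CPM in CD11b+ replicates 1 to 4, against 93.3, 98.8, 82.9 and 102 CPM in CD11b- replicates 1 to 4).

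Paralogs were compared with their parents as ratios of counts within a library, which do not depend on scaling between libraries where both genes have counts. Such pairs can share reads, and the sources used here do not say how the authors counted reads that match both copies. The start of the coding sequence shows how far the copies of the pairs with most paralog over parent can be told apart. Lines below give coding bases 1 to 60 from GENCODE on GRCm38, with capitals where the copies differ, and the genes lie on chromosomes 9 (Rps27l), 3 (Rps27), 12 (Rpl36al) and X (Rpl36a).
Rps27l: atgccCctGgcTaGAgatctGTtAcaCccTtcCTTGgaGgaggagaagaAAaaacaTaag
Rps27: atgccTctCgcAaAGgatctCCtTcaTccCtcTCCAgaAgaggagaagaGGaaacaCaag
Rpl36al: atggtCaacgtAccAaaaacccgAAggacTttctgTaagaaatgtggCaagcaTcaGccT
Rpl36a: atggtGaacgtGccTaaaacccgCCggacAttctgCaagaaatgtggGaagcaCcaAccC
Over the whole coding sequence Rps27l and Rps27 differ at 60 of 252 bases (76.2% identity, longest identical run 11 bases), and Rpl36al and Rpl36a at 39 of 318 bases (87.7% identity, longest identical run 24 bases). Sharing with other annotated genes fell more on the parents: 98.6% of the 50-base stretches of Rps27 and 22.4% of those of Rps27l are found elsewhere, and 85.5% of Rpl36a and 63.3% of Rpl36al.

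Of 7 pairs compared, 5 had counts of both genes in every library, and in those 5 the paralog's ratio to its parent had the higher mean in CD11b+ cells. None of the 7 passed correction, and the ratios of Rpl3l and Rpl39l are set by the pseudocount in the 3 CD11b- libraries without a count. With 4 libraries a side the smallest p an exact two-sided permutation test can give is 0.0286. Corrected over 7 pairs, a pair at that p could pass only if most of the others reached it too. Missing the threshold therefore says little about a single pair. Rpl36al, a copy that lies on an autosome while its parent is X-linked, gave log2 ratios of 2.93, 3.25, 2.94 and 2.78 in CD11b+ cells, against 1.83, 2.26, 2.57 and 2.07 in CD11b- cells. No libraries overlapped, and the means correspond to 7.85 paralog counts per parent count in CD11b+ cells and 4.54 in CD11b- cells, a log2 difference of 0.79 with an exact permutation p of 0.0286 (adjusted p 0.10 over 7 pairs). Rpl36al itself measured 54.4, 47.5, 54.0 and 62.1 CPM in CD11b+ cells, against 38.3, 41.1, 48.2 and 46.8 CPM in CD11b- cells (log2 fold change 0.35 ± 0.19, edgeR adjusted p 0.214). Rpl36a was at 4.96 to 9.04 CPM in CD11b+ libraries and 8.08 to 11.1 CPM in CD11b- libraries. The ratio of Rpl7l1 to Rpl7 also separated the populations, at 2.47 in CD11b+ cells and 1.51 in CD11b- cells, a log2 difference of 0.71 (exact permutation p 0.0286, adjusted p 0.10).

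Rps27l, a p53 target in human and mouse cells, had far more counts than its parent. Of the 50-base stretches 98.6% of Rps27 and 22.4% of Rps27l are shared with other annotated genes. Whether reads of Rps27 went uncounted was not tested, so the counts do not show which gene is expressed more. It measured 72.0, 59.8, 64.6 and 89.5 CPM in CD11b+ cells, against 91.7, 71.0, 66.4 and 93.7 CPM in CD11b- cells, with overlap and a log2 fold change of -0.13 ± 0.18. Rps27, the parent, measured 0.628, 1.14, 1.73 and 1.72 CPM in CD11b+ cells, against 3.89, 1.62, 3.60 and 2.66 CPM in CD11b- cells. The log2 ratio averaged 5.84 ± 0.67 in CD11b+ cells and 4.82 ± 0.55 in CD11b- cells (SD, n = 4 each; exact permutation p 0.0571, adjusted p 0.10), or 57.2 and 28.3 paralog counts per parent count in the same order. Rps4l, a relative of the X-linked Rps4x, measured 19.0, 6.51, 26.5 and 12.2 CPM in CD11b+ cells, against 7.19, 7.31, 13.6 and 2.37 CPM in CD11b- cells. The ratio to Rps4x was higher by a log2 value of 1.80 (exact permutation p 0.0571, adjusted p 0.10) with overlapping libraries.

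**Figure D4:**
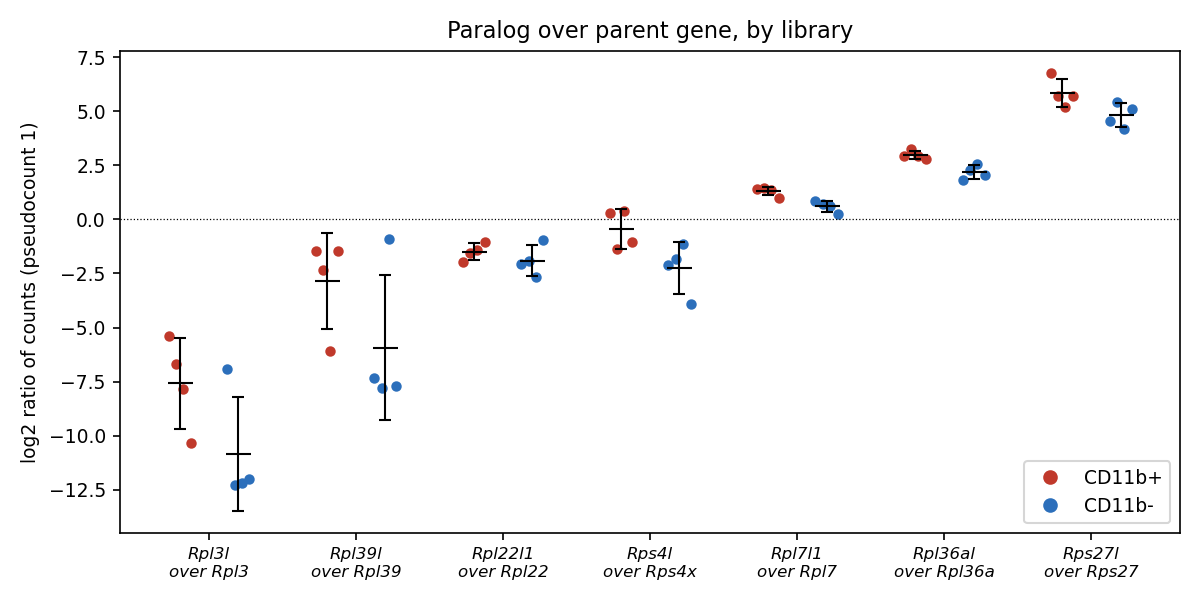
log2 ratio of paralog to parent counts (pseudocount 1) in each library for the 7 pairs, CD11b+ left and CD11b- right within each pair, bars giving mean and SD. Rpl36al and Rpl7l1 separate the populations, and Rpl3l and Rpl39l scatter widely. Counts of Rps27l lie above those of its parent by 4.20 to 6.78 log2 units in every library, where 98.6% of the parent's 50-base stretches are shared with other genes.

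None of the remaining members outside the core set passed the test, and Rpl3l and Rpl39l were barely present. Rpl22l1, which human and mouse cells make more of when Rpl22 is lost, had 8.17 to 14.6 CPM in CD11b+ libraries and 5.25 to 18.8 CPM in CD11b- libraries, with a log2 fold change of -0.02 ± 0.48 and a 95% interval of -1.09 to 1.05. Rpl37rt, a retrocopy of Rpl37, had 36.2 to 47.7 CPM in CD11b+ libraries and 33.7 to 49.4 CPM in CD11b- libraries (0.06 ± 0.20), and shares 91.0% of its 50-base stretches. Rps19bp1, a protein that binds Rps19, had 36.9 to 45.7 CPM in CD11b+ libraries and 23.1 to 52.0 CPM in CD11b- libraries (0.27 ± 0.28, 95% interval -0.37 to 0.91). Rpl3l, the copy known from heart and skeletal muscle, measured 1.97, 0.759, 0.396 and 0.0737 CPM in CD11b+ cells and 1.12 CPM in CD11b- replicate 1. Rpl39l, the copy known from the male germ line, measured 1.01, 0.354, 0.0417 and 1.69 CPM in CD11b+ cells and 2.40 CPM in CD11b- replicate 3. Each had no count in the other 3 CD11b- libraries, which allows up to 0.0853 to 0.109 CPM in a library (3 counts, counting error only), and their fitted fold changes had intervals too wide to read (edgeR adjusted p 0.614 and 0.943).

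Levels were compared between genes on a TPM scale, as counts per kilobase of merged exons scaled to the same sum in every library over the 11894 tested genes with a length, and averaged over all 8 libraries. This scale ordered the members and was not used to compare the populations. Proteins that sit together in 1 complex lay far apart on it: from Rpl4 at 1699 ± 383 TPM to Rpl26 at 2.51 ± 1.93 TPM (SD, n = 8), a 677-fold range. In CPM per kilobase of each gene's principal transcript Rpl17 was the lowest core member, and the range from Rpl4 to Rpl17 was 362-fold. Below Rpl4, a large subunit protein that lines the exit tunnel, lay Rplp0 at 1151 ± 336, Rplp1 at 882 ± 294 and Rpl8, another large subunit protein, at 615 ± 172 TPM. In this order each gene differed from the one named after it by less than the sum of their SDs. Those SDs span both populations, with Rpl4 at 1366 ± 178 TPM in CD11b+ and 2032 ± 126 TPM in CD11b- libraries. They do not measure the difference of 2 genes within a library, so they do not say how firm the order is. In all, 21 core members lay above 100 and 15 below 10, and 23 lay at or below the median of all tested genes, which was 15.8. The median of the core members was 32.5. Members outside the core set that lay above most core members included Rps27l (287 ± 73.1), Rpl7l1 (169 ± 17.0), Rpl37rt (168 ± 31.0) and Rpl36al (109 ± 10.4).

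Shared sequence ran loosely with this order. Of the 77 core members 76 share at least a single 50-base stretch with another annotated gene, and 44 share more than 50% of them. The 7 core members with at most 1 pseudogene among the sharers had a median level of 477 and none below 61.9, while the 34 with at least 10 had a median of 24.6. The groups overlapped: Rpl3, with 26 such pseudogenes, lay at 118 and Rpl29, with 81, at 75.1. Across the 77 genes Spearman's rho was -0.41 between level and the number of such pseudogenes, and -0.32 between level and the percent of shared stretches. These genes share libraries and gene models, so the values are descriptions with no p. Whether reads were lost to the copies was not tested.

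**Figure D5:**
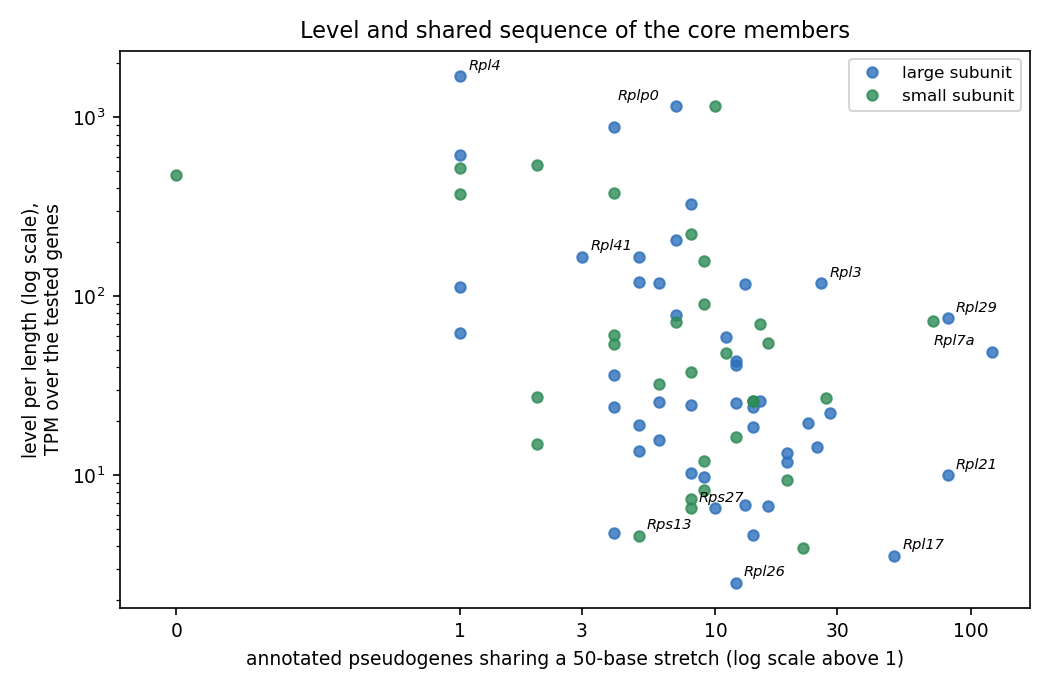
Level per length (TPM over the tested genes, log axis, mean of 8 libraries) of the 77 core members against the number of annotated pseudogenes that share a 50-base stretch (log axis above 1), coloured by subunit. Members with at most 1 such pseudogene lie at 61.9 or above, and lower levels appear as the number grows.

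The machinery that builds and uses ribosomes was counted beside the members, in lists chosen with earlier results of these data known. Of 64 ribosome assembly factors tested, 3 were higher and 3 lower in CD11b+ cells (9.38% called, against 29.7% of all genes) with a median log2 fold change of -0.08. The higher ones were Mphosph10 (62.1 ± 14.4 CPM in CD11b+ cells and 26.8 ± 11.9 in CD11b- cells, log2 fold change 1.26 ± 0.32, edgeR adjusted p 0.0138), Pwp1 (0.96 ± 0.28) and the large subunit factor Ebna1bp2 (0.56 ± 0.15). The lower ones were Bysl (-1.01 ± 0.29), and Dkc1 (-0.77 ± 0.24) and Nop56 (-0.68 ± 0.23), parts of the complexes that modify ribosomal RNA. The libraries of Dkc1 and Nop56 overlapped between the populations. Of 17 alternative fits, 11 called Bysl, 9 Dkc1, 7 Nop56, 13 each Pwp1 and Ebna1bp2, and 17 Mphosph10. Mphosph10 works in the early small subunit particle. Bysl, a small subunit assembly factor, averaged 38.5 ± 16.4 CPM in CD11b+ cells and 79.4 ± 9.61 CPM in CD11b- cells (SD, n = 4 each). The 2 most abundant, the nucleolar protein Ncl and the large subunit factor Eif6, were at -0.33 ± 0.19 and 0.15 ± 0.13. Without the Mpo-high pair 3 of the 64 were called, and 2 without CD11b+ replicate 3.

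Of 19 RNA polymerase I subunits and factors, which make the ribosomal RNA, 2 were lower and none higher (10.5% called, against 29.7% of all genes). The median of the list was 0.19, and 5 of the 19 were below 0. Ubtf, the factor that binds the ribosomal RNA genes, measured 161, 172, 123 and 104 CPM in CD11b+ cells, against 274, 340.0, 304 and 252 CPM in CD11b- cells, with no overlap and a log2 fold change of -1.02 ± 0.20 (SE; edgeR adjusted p 0.00362). Polr2e, a subunit that all nuclear RNA polymerases share, was at -0.70 ± 0.17 (adjusted p 0.0110). The initiation factor Rrn3 was at 0.09 ± 0.24.

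Of 44 initiation factors 4 were higher and 7 lower (25.0% called, against 29.7% of all genes), with a median of -0.12. Eif5, which helps select the start codon, measured 490.5, 568, 549 and 585 CPM in CD11b+ cells, against 1516, 1469.6, 1586 and 1710.1 CPM in CD11b- cells, a 2.79-fold lower level (log2 fold change -1.48 ± 0.13, edgeR adjusted p 2.62e-05). Pabpc4, a poly(A)-binding protein known from red cell development, averaged 2.72 ± 1.34 CPM in CD11b+ cells and 35.0 ± 2.54 CPM in CD11b- cells. Its log2 fold change was -3.66 ± 0.45 (edgeR adjusted p 0.000208). The markers of erythroid cells, of B cell progenitors and of proliferation were lower in CD11b+ cells too, and a link to any of them was not tested. Eif4g3, a scaffold of the cap-binding complex, averaged 64.8 ± 17.2 CPM in CD11b+ cells and 20.9 ± 9.21 CPM in CD11b- cells, at 1.70 ± 0.35 (adjusted p 0.00451). Of 10 tested elongation and termination factors 3 were lower and none higher, with a median of -0.39. By its share of calls this list did not stand out from all genes, of which 29.7% were called. The lower ones were Eef1d, Eef2k and Eef2. Eef1d averaged 85.8 ± 8.35 CPM in CD11b+ cells and 306 ± 40.5 CPM in CD11b- cells (-1.80 ± 0.16, adjusted p 2.65e-05). Eef2k, the kinase that inhibits Eef2, was at -1.23 ± 0.31, and Eef2, which moves the ribosome along the mRNA, at -0.55 ± 0.15. Eef1d belongs to the exchange complex of Eef1a1, and Eef1a1 itself, with 1501 ± 129 CPM in CD11b+ cells and 1691 ± 334 CPM in CD11b- cells, was at -0.13 ± 0.17. Of the 77 mitochondrial ribosomal proteins 8 were higher and 6 lower (18.2%), with a median of -0.10.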

How the data were processed

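The authors deposited counts per gene symbol for each library, in files whose names say FPKM, and a table of CPM. Those counts scaled to the library total matched the CPM to within 0.0005. The submitters' processing notes name TopHat2, HTSeq 0.10.0, DESeq2 and mm9 without saying what each was used for. The treatment of reads with several matches is not given in the sources used here. Rows without a symbol (27, at 0.205% to 0.514% of counts) were left out of shares and tests. The library totals given above and those behind the printed CPM include them.

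Counts were tested with edgeR 4.0.16 in R 4.3.3 (TMM scaling, filterByExpr, quasi-likelihood, no covariate), adjusted over all genes by the Benjamini-Hochberg method. Alternatives used DESeq2 1.42.0 (81 genes without an adjusted p stayed out), limma 3.58.1 on log2(CPM + 1), other scalings and filters, the replicate number as a block, and libraries left out. Shared sequence was counted as exact 50-base stretches of GENCODE M21 transcripts. Scripts were tested on simulated data. Members and lists were chosen with earlier results of these data known. Genes were named by rule (the extremes of fold change and level, calls, paralogs, stalk and 5S proteins, and the most abundant and most changed of each list); Rps3a1, Rps2, Rps19, Rpl35, the members shown for their tracts and further called list members were named after their values were seen. A few genes that the rule names are not reported here.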

Additional observations from a re-analysis of the deposited data

Results flagged for a closer look

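In 7 of 108 groups of 4 libraries 1 library lay apart from the other 3 by Dixon's test, where chance alone flags about 1 group in 20. Bysl (62.9 CPM), Rrn3 (204 CPM) and Eef1a1 (1693 CPM) were each high in CD11b+ replicate 1. Rpl39l was found among the CD11b- libraries in replicate 3 only, at 2.40 CPM, which also set its log2 ratio to Rpl39 apart at -0.90. Rpl3l was found among the CD11b- libraries in replicate 1 only, at 1.12 CPM, with a log2 ratio to Rpl3 of -6.92.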

How the results depend on the processing

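The median log2 fold change of the members stayed below 0 under every alternative run (-0.25 to -0.09 with 1 library left out), and the count of all genes called stayed within 1.5 times. With no filter the median was -0.13 over the members and -0.15 over all genes, so there the members did not lie below all genes. Members called higher numbered 0 with limma, no filter, no scaling or the replicate block, and 2 without the Mpo-high pair of CD11b- libraries. Members called lower numbered 6 with DESeq2, and 1 with no filter, with totals without the 20 most abundant genes, or without that pair. Leaving out 1 library gave 0 to 1 higher and 1 to 4 lower, and 0 to 2 and 1 to 2 relative to the summed members. Relative to that sum, the pair's absence (added after seeing the data) gave 3 higher and 1 lower. Totals without the 20 most abundant genes moved the median of all genes by 0.11, no filter by -0.14, and the first moved the share difference to -0.00813 points. List counts became 5 for elongation factors with DESeq2, 9 for mitochondrial ribosomal proteins with the replicate block, and 3 for assembly factors without the pair; single libraries gave 2 to 6 assembly factors, 9 to 13 mitochondrial ribosomal proteins and 0 to 1 anaemia genes. Over all genes, deviations from the population mean correlated at 0.0022 to 0.0430 between same-numbered libraries. Between libraries of different number the values ran from -0.0344 to 0.0197. The highest of all, 0.0430, was between the libraries numbered 4. Values this small cannot show whether the samples were paired, and Rps3a1 was high in replicates 1 and 3 of both populations. With the replicate block 0 members were higher and 2 lower, and relative to the sum 2 higher and 1 lower. Low counts limit the paralog and Rpl26 values.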
